A study of Sus scrofa with 16 samples.

Results

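AMBP and APOM are 2 genes of the lipocalin family, measured here in the small intestine of preterm piglets. They were found by gene symbol, taking every probe set annotated with AMBP or with APOM alone. This gave 1 probe set for each gene, 2 of 23999 probe sets that are not controls, and 2 of 6765 genes with a probe set of their own. The pair was chosen by its values on the arrays of untreated proximal intestine, some high and some near the bottom of the scale. The 4 values of that group, and every difference that uses them, are therefore given as a description with no test.

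Animals of a Landrace x Large white x Duroc cross from 2 sows were born by caesarean at gestation day 105, fed parenterally and then by enteral formula, and killed on day 5. From birth, treated animals received ampicillin, gentamycin and metronidazol by mouth and by intramuscular injection, and untreated animals received saline. There were 4 groups of 4 arrays: antibiotics distal, untreated distal, antibiotics proximal and untreated proximal intestine. The study treated 11 piglets and gave saline to 13, and the arrays analysed here carry 9 piglet numbers, 7 of them with both segments. The labels do not state that the number in a sample's name is the animal's, and it is read so here. Pieces of intestine hold many cell types, so fewer cells of a type and less RNA per cell cannot be told apart.

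Lipocalins are small secreted proteins folded into a barrel that holds a hydrophobic ligand. AMBP encodes a precursor that is cut into alpha-1-microglobulin, a lipocalin that binds haem and radicals, and bikunin, a Kunitz-type protease inhibitor that is joined to heavy chains of the ITIH family. APOM encodes apolipoprotein M, which stays anchored in high-density lipoprotein (HDL) by its retained signal peptide and carries sphingosine-1-phosphate (S1P). Both are known mainly as liver products, APOM also from kidney, and their genes are regulated by hepatocyte nuclear factors.

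The deposited values were log2 signals with a floor at 2.14, and a probe set is called above the level here when its log2 value exceeded 5. On each array 45.1% to 46.5% of the probe sets exceeded it. Of all probe sets, 11538 were above it on at least 4 arrays and were tested. Both genes passed that filter, AMBP with 6 arrays, all of them proximal, and APOM with 13 arrays, 7 distal and 6 proximal. Across the tested probe sets, arrays of a group correlated with r of 0.944 to 0.981 in antibiotics distal, 0.913 to 0.96 in untreated distal, 0.878 to 0.961 in antibiotics proximal and 0.894 to 0.933 in untreated proximal tissue. With 4 arrays a group, every difference has limited precision.

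AMBP was near the floor throughout the distal intestine. In antibiotics distal tissue it had log2 values of 3.20, 3.20, 2.51 and 3.20 in piglets 85, 86, 87 and 95. In untreated distal tissue it had 2.32, 2.14, 2.40 and 2.32 in piglets 83, 88, 89 and 92. All 8 distal arrays were below the level, so no order between these values is read. In antibiotics proximal tissue AMBP had 9.33, 8.66, 10.64 and 8.27 in piglets 86, 87, 95 and 98, every one above the level. In untreated proximal tissue it had 2.14, 8.03, 9.76 and 2.23 in piglets 83, 88, 89 and 92. Piglets 88 and 89 thus lay in or next to the range of the antibiotics proximal arrays, and piglets 83 and 92 in or next to that of untreated distal tissue.

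APOM was detected in both segments and was far higher in most proximal arrays. In antibiotics distal tissue it had log2 values of 6.42, 6.47, 4.496 and 5.93 in piglets 85, 86, 87 and 95. In untreated distal tissue it had 7.76, 6.27, 6.73 and 6.66 in piglets 83, 88, 89 and 92. Those 2 groups overlapped, and only piglet 87 fell below the level. In antibiotics proximal tissue APOM had 13.41, 13.25, 13.78 and 12.12 in piglets 86, 87, 95 and 98. In untreated proximal tissue it had 4.14, 12.81, 12.64 and 3.40 in piglets 83, 88, 89 and 92. Piglets 83 and 92 lay below all 8 distal arrays for APOM, whereas piglets 88 and 89 lay within the range of the antibiotics proximal arrays.

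**Figure D1:**
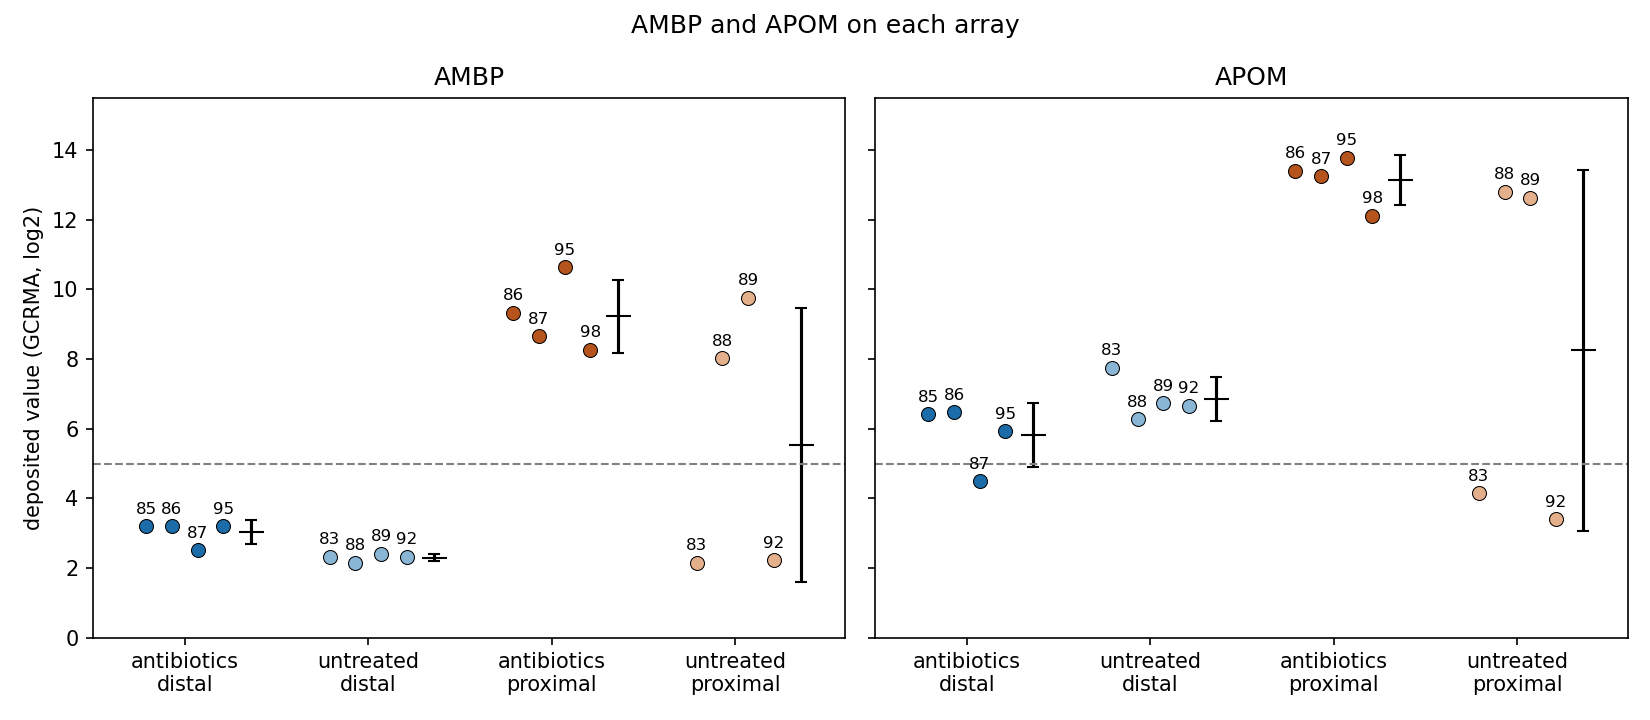
Deposited log2 value of AMBP and APOM on each of the 16 arrays, by group (points are arrays, black bars are mean ± SD of 4 arrays, and the dashed line is the level of 5). The antibiotics proximal arrays are all high, from 8.27 to 10.64 for AMBP and from 12.12 to 13.78 for APOM, while untreated proximal arrays fall both above and below the level.

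AMBP averaged 3.03 ± 0.34 in antibiotics distal, 2.30 ± 0.11 in untreated distal, 9.23 ± 1.04 in antibiotics proximal and 5.54 ± 3.94 in untreated proximal tissue (SD, n = 4 each). Antibiotics proximal tissue thus had the highest mean and untreated proximal tissue the next, both distal groups were below the level, and the untreated proximal range reached into those of the other groups. APOM averaged 5.83 ± 0.92 in antibiotics distal, 6.85 ± 0.64 in untreated distal, 13.14 ± 0.72 in antibiotics proximal and 8.25 ± 5.18 in untreated proximal tissue (SD, n = 4 each). From the highest mean down, the order was antibiotics proximal, untreated proximal, untreated distal and antibiotics distal, and each neighbouring pair overlapped. The level of one probe set cannot be set against that of the other.

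The difference between segments in piglets given antibiotics is one of group means that hold no untreated array, while its SE and p come from a spread fitted over all 16 arrays, the untreated proximal ones included. Both genes were lower in distal than in proximal tissue, and in each case the 4 distal arrays lay below the 4 proximal ones. AMBP differed by -6.20 on the log2 scale (SE 1.27, 95% interval -8.90 to -3.49, limma adjusted p = 0.00874), at least 18.7-fold lower in distal tissue when the proximal mean is set against the level of 5. APOM differed by -7.31 (SE 1.66, 95% interval -10.84 to -3.78, limma adjusted p = 0.0163). Of all tested probe sets 5.25% passed the adjusted p of 0.05 in this comparison, 3.15% higher and 2.10% lower in distal tissue, and the median difference over all of them was 0.054. Counted from the most negative difference, APOM was number 5 and AMBP number 11 of 11538. AMBP passed the filter through proximal arrays alone, the tissue found higher here, so its p and its place carry that limit. With no filter on dim probe sets its limma adjusted p was 0.0481. Fitted on the 8 arrays of this comparison alone, the SE was 0.47 for AMBP and 0.50 for APOM, with limma adjusted p of 8.85e-05 and 4.17e-05. A two-sided exact permutation test over the 8 arrays gave p = 0.0286 for each gene, the smallest it can give. That test treats the arrays as separate animals, although piglets 86, 87 and 95 gave an array to each group.

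In the fit over 16 arrays the call for APOM depended on single choices. With the piglet number as a fixed block its difference was -7.85 with a limma adjusted p of 0.0574. Without piglet 87 of the distal arrays the adjusted p by limma was 0.0531, and without piglet 95 of the proximal arrays it was 0.0536. The array measure of RNA 5′ against 3′ signal, the mean log2 of GAPDH and actin 5′ control sets minus that of their 3′ sets, ran from -4.36 to -2.88 in antibiotics distal and from -3.61 to -2.73 in antibiotics proximal tissue, and with it as a covariate APOM had a limma adjusted p of 0.0519.

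In distal tissue, antibiotics against saline, neither gene passed its test. The group means hold none of the arrays that chose the genes, but the spread behind the SE and p was again fitted over all 16 arrays. AMBP differed by 0.73 (SE 1.27, 95% interval -1.98 to 3.44, limma adjusted p = 0.845), but all 8 arrays were below the level and no fold is given. APOM differed by -1.03 (SE 1.66, 95% interval -4.56 to 2.503, limma adjusted p = 0.828, two-sided exact permutation p = 0.0857). Of all tested probe sets 2.12% passed in this comparison, 1.02% higher and 1.10% lower with antibiotics. Fitted on the 8 distal arrays alone, the SE was 0.21 for AMBP and 0.47 for APOM, and the limma adjusted p was 0.0839 and 0.256.

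Distal and proximal arrays of the same piglet number can be set against each other. For AMBP, distal minus proximal was -6.13, -6.15 and -7.44 in antibiotics piglets 86, 87 and 95, and in untreated piglets it was -5.88 and -7.35 in 88 and 89 but 0.18 and 0.10 in 83 and 92. For APOM it was -6.95, -8.76 and -7.85 in antibiotics piglets 86, 87 and 95. In untreated piglets APOM gave -6.55 and -5.91 in 88 and 89, and 3.62 and 3.26 in 83 and 92. In piglets 83 and 92 AMBP was near the floor in both segments, and APOM was higher in the distal than in the proximal piece. The difference of group means is accordingly smaller in untreated piglets: -3.24 for AMBP and -1.39 for APOM, described without a test.

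**Figure D2:**
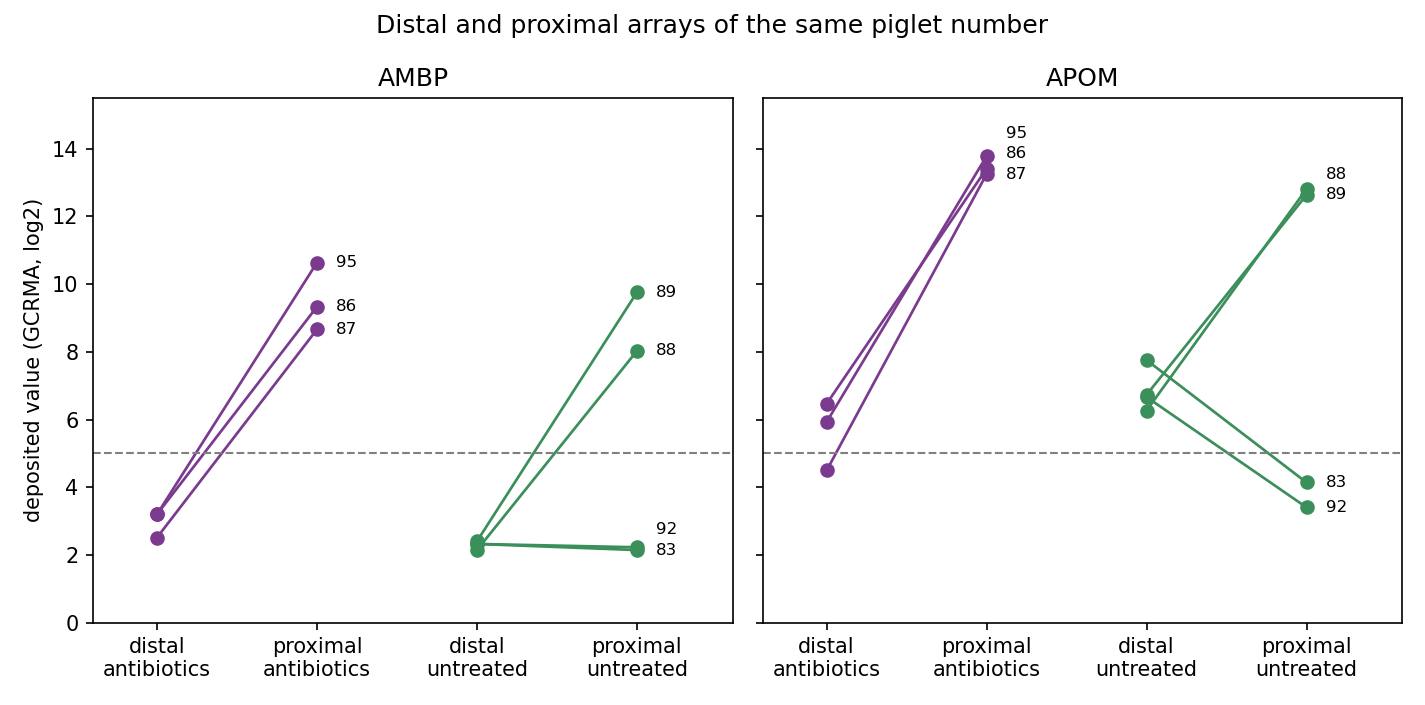
Deposited log2 value of AMBP and APOM in the distal and proximal arrays that carry the same piglet number (lines join the arrays of a number, printed at the right, and the dashed line is the level of 5). All 3 antibiotics piglets are lower in distal tissue, as are untreated piglets 88 and 89, whereas untreated piglets 83 and 92 are flat for AMBP and higher in distal tissue for APOM.

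In proximal tissue, antibiotics minus untreated was 3.69 for AMBP and 4.89 for APOM, with overlapping groups. These differences have no test, because the untreated arrays chose the genes. The range among the 4 untreated proximal arrays was 7.61 for AMBP, and 16 of the 11538 tested probe sets (0.139%) ranged at least as widely in that group. For APOM it was 9.41, and 6 probe sets (0.052%) ranged at least as widely. The genes were chosen for such a spread on these arrays, so these shares are a description and no test. Among antibiotics proximal arrays the same ranges were 2.37 for AMBP and 1.67 for APOM, and 8.23% and 22.3% of tested probe sets were as wide.

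Epithelial and segment markers were read on the same 4 arrays. The summed level of the enterocyte list on the log2 scale was 16.78 to 17.07 in antibiotics distal, 16.67 to 17.75 in untreated distal and 17.70 to 18.00 in antibiotics proximal tissue, and 17.21, 17.71, 17.82 and 17.34 in untreated proximal piglets 83, 88, 89 and 92. All 9 annotated members were above the level on every array. The proximal segment list summed to 16.11 to 16.41 in antibiotics distal, 15.81 to 17.17 in untreated distal and 17.45 to 17.68 in antibiotics proximal tissue, and to 16.70, 17.42, 17.27 and 16.77 in untreated proximal piglets 83, 88, 89 and 92. Piglets 83 and 92, the 2 with low AMBP and APOM, thus had the lowest sums in their group on both lists. Their medians on both lists were also the lowest. In piglets 83, 88, 89 and 92 the enterocyte median was 12.93, 13.27, 13.69 and 13.16. The proximal list median was 11.30, 12.76, 11.91 and 11.61. Piglets 83 and 92 were also lowest in the sum of the distal segment list. It was 15.62 to 15.97 in antibiotics distal, 14.45 to 15.99 in untreated distal and 13.77 to 15.02 in antibiotics proximal tissue. In untreated proximal piglets 83, 88, 89 and 92 it was 12.18, 14.04, 14.48 and 13.50. They were not both lowest in the median of that list, which was 9.07, 8.56, 9.04 and 8.13 in the same piglets and highest in 83. The part of these lists in the AMBP and APOM values was not tested.

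GATA4, a transcription factor of the proximal small intestine, had log2 values of at most 2.80 on any distal array, 3.79 to 6.97 in antibiotics proximal tissue, and 5.60, 5.63, 4.89 and 6.39 in untreated proximal piglets 83, 88, 89 and 92. LEAP2, an antimicrobial peptide on the proximal list, had 11.07, 11.63, 10.52 and 11.09 in the same 4 piglets. Neither gene was lower in piglets 83 and 92 than in both 88 and 89, unlike the sum and the median of the proximal list, on which both stand. FABP6, the ileal bile acid binding protein, had 2.32, 7.40, 3.49 and 2.33, above the level in 88 alone. TFF2, a trefoil peptide of Brunner's glands, had at most 4.56 in antibiotics proximal tissue and 9.03, 5.86, 3.62 and 7.86 in untreated proximal piglets 83, 88, 89 and 92. It was the 1 of 2 annotated duodenal markers to exceed the level, and of these 4 piglets it was highest in 83 and 92. TFF2 was not confined to proximal tissue. It also exceeded the level in untreated distal piglets 88 and 92, where the log2 sums of the duodenal list were 5.92 and 6.06. That sum was 5.96 in untreated proximal piglet 88.

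S100A9, PTX3, the 5′ minus 3′ measure and the leukocyte list were also read on the 4 untreated proximal arrays. S100A9, a neutrophil calcium-binding protein, had log2 values of 8.06, 6.68, 10.91 and 10.51 in untreated proximal piglets 83, 88, 89 and 92. PTX3, an inflammation-induced pentraxin that binds the inter-alpha-inhibitor heavy chains, had 7.38, 6.04, 12.26 and 13.22. Both were high in 89 and 92, 1 array with high and 1 with low AMBP and APOM. The 5′ minus 3′ measure was -3.62, -2.40, -4.25 and -3.05 in piglets 83, 88, 89 and 92, highest in 88 and lowest in 89. The summed leukocyte list ran from 8.07 to 9.33 on the log2 scale in antibiotics proximal tissue. It was 10.31, 10.81, 11.46 and 12.16 in untreated proximal piglets 83, 88, 89 and 92. The part of these measures in the AMBP and APOM values was not tested.

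Liver and pancreas RNA were looked for because both lipocalins are liver products. Of 13 hepatocyte markers 10 were annotated, and CPS1, which enterocytes also make, was the sole one above the level on every array. APOH was above it on 1 antibiotics proximal array, at 5.60. The defining hepatocyte genes were at or near the floor on all 16 arrays: ALB at 2.14, AFP at most 2.28, TTR at most 2.16, FGB at most 2.18 and AHSG at most 2.68. Of the pancreatic markers PNLIPRP2 alone was above the level, while CPA1, CPB1 and CELA1 stayed at or below 2.54.

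The genes with the profile most like each member were ranked by Pearson's r over the 16 arrays among 4683 genes. These arrays share 9 piglets and fall into segments, so the coefficients describe this set of arrays and carry no p. For AMBP they were MLN (0.955), the gut hormone motilin, APOM (0.954), CYP3A39 (0.917), a cytochrome P450 enzyme, GHRL (0.910), the ghrelin precursor, and CYP27A1 (0.904), the sterol 27-hydroxylase. For APOM they were AMBP (0.954), CYP3A39 (0.939), APOA2 (0.902), an HDL apolipoprotein, SEC14L2 (0.887), a lipid transfer protein, and CYP27A1 (0.886). AMBP and APOM were chosen together on the untreated proximal arrays, which are among these 16. The place of each in the other's ranking over 16 arrays carries that limit. Over the 12 arrays outside untreated proximal tissue r was 0.963 between AMBP and APOM and 0.986 between AMBP and MLN, and Spearman's rho over 16 arrays was 0.80 between AMBP and APOM. The choice of measure mattered: over those 12 arrays 2 of the 5 genes named for AMBP and 1 of the 5 for APOM stayed in the top 5, and with Spearman's rho 0 and 1 did.

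On the 4 untreated proximal arrays these genes followed AMBP and APOM to differing degrees. MLN had log2 values of 3.05, 7.22, 9.05 and 5.37 in piglets 83, 88, 89 and 92, and GHRL had 2.81, 4.66, 8.99 and 2.81. CYP3A39 had 4.83, 7.42, 7.25 and 4.31, and CYP27A1 had 3.81, 7.19, 5.70 and 3.27. APOA2 had 13.31, 15.54, 14.91 and 9.998, and SEC14L2 had 5.69, 7.82, 6.86 and 4.93. All 6 were lower in 83 and 92 than in 88 and 89, and they had been named for their likeness over a set that includes these arrays. General epithelial genes ranged less: FABP2, a fatty acid binding protein, had 15.42, 16.19, 16.41 and 14.99, EPCAM, a surface protein of epithelial cells, had 14.51, 14.05, 14.46 and 15.08, and HNF4A, a nuclear factor of gut and liver epithelium, had 10.58, 10.52, 10.15 and 11.50. Of these, FABP2 was lower in 83 and 92 than in 88 and 89.

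**Figure D3:**
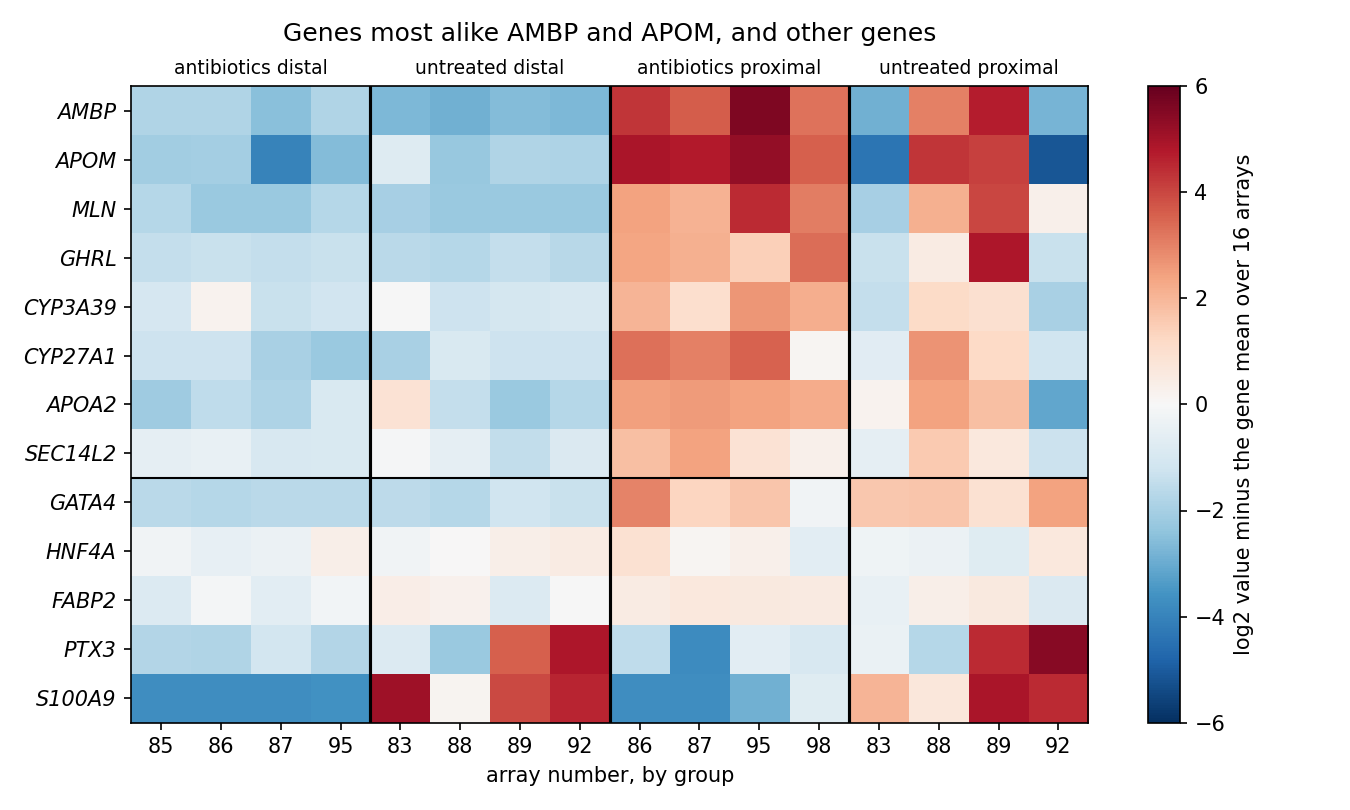
Log2 value minus the gene's mean over the 16 arrays, for AMBP, APOM, the genes most like them and 5 other genes (columns are arrays by group and piglet number, colour is the difference on the log2 scale). AMBP and APOM are below their means in all distal arrays and in untreated proximal piglets 83 and 92, and the 6 genes most like them are lower in those 2 piglets than in 88 and 89, whereas GATA4, HNF4A, PTX3 and S100A9 do not divide the untreated proximal arrays that way.

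Of 18 other lipocalins listed, 8 were annotated and 4 measured: RBP4, the plasma retinol carrier, PTGDS, a prostaglandin D synthase, ORM1, an acute-phase glycoprotein, and SAL1, a salivary lipocalin of pigs. In limma 0 of 4 passed between segments in antibiotics piglets (0 at an unadjusted p under 0.05, median -0.40) and 0 of 4 between treatments in distal tissue (2 unadjusted, 1 higher and 1 lower, median -0.46). At that unadjusted p stood 1966 of the 11538 tested probe sets between segments and 1823 between treatments in distal tissue. With 5.25% and 2.12% of all tested probe sets called, a count of 0 among 4 genes is near the background and says nothing particular of the family. RBP4 differed by 0.44 (limma adjusted p = 0.581) and ORM1 by -0.37 (limma adjusted p = 0.714) between segments. APOD, C8G, PAEP and OBP2B were not above the level on any array.

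Bikunin acts as a partner of the ITIH heavy chains on hyaluronan, and of 17 genes of that system 12 were annotated and 6 measured. HYAL1, a hyaluronidase, fell by 1.87 in distal against proximal tissue of antibiotics piglets (SE 0.43, limma adjusted p = 0.0176). It was the 1 call of 6, against 5.25% of all tested probe sets, with a list median of 0.013. That call was lost without antibiotics distal piglet 86 or 95 (limma adjusted p = 0.0606 and 0.0629) and with the piglet as a fixed block (0.0548). Between treatments in distal tissue 0 of 6 passed in limma, against 2.12% of all tested probe sets. There, 1 did at an unadjusted p under 0.05, against 1823 of all 11538 tested probe sets. All 6 differences were negative, with a median of -1.40 against 0.004 over all tested probe sets. With 0 of 6 called, no shared fall of the list is read. PTX3 differed by -2.96 between treatments in distal tissue (SE 1.59, limma adjusted p = 0.399). Of the heavy chains, ITIH1 was above the level on 2 arrays alone, untreated proximal piglets 88 and 89 (6.65 and 5.67), against 2.58 and 2.14 in 83 and 92 and at most 4.53 elsewhere. These are also the 2 untreated proximal arrays with high AMBP. The antibiotics proximal arrays, with AMBP at 8.27 to 10.64, all had ITIH1 below the level, and ITIH1 was not tested. ITIH4 had 3.22, 5.32, 8.56 and 3.67 in piglets 83, 88, 89 and 92, while ITIH2 and ITIH3 stayed below the level.

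Protease inhibitors related to bikunin by activity were measured for 8 of 18 listed genes. Between segments in antibiotics piglets SPINK4, a Kazal-type inhibitor of goblet cells, rose by 0.75 in distal tissue (limma adjusted p = 0.0307). It was the 1 call of 8 (median -0.20), against 5.25% of all tested probe sets. The call was kept in 3 of 8 fits that leave out an array and lost with the piglet as a fixed block (limma adjusted p = 0.17). SPINK4 itself stands on the goblet list. The log2 sum of that list was 15.36 to 15.57 in antibiotics distal and 14.56 to 14.90 in antibiotics proximal tissue. SPINK4 averaged 15.0 and 14.2 in these groups and makes up much of the sum, so the sum is no separate observation. The part of goblet cells in the SPINK4 difference was not tested. Between treatments in distal tissue SERPING1, the C1 inhibitor, fell by 1.69 with antibiotics (limma adjusted p = 0.0489). It was the 1 call of 8 (median -0.57), against 2.12% of all tested probe sets, and it was lost whichever of the 8 arrays was left out.

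Alpha-1-microglobulin clears haem and radicals, and 11 of 18 genes of that work were measured. CD163, the macrophage receptor for haemoglobin bound to haptoglobin, had log2 values of 4.46, 4.29, 3.77 and 3.62 in antibiotics distal piglets 85, 86, 87 and 95, against 9.46, 6.71, 9.77 and 10.20 in untreated distal piglets 83, 88, 89 and 92. The groups did not overlap, and CD163 was at least 16.4-fold lower with antibiotics (difference -5.002, SE 0.87, limma adjusted p = 0.0056). It was the 1 call of 11 in distal tissue (median -0.14), against 2.12% of all tested probe sets. CD163 also stands on the leukocyte list, whose sum was 7.23 to 9.07 on the log2 scale in antibiotics distal and 10.22 to 11.94 in untreated distal tissue, with 1 to 2 and 4 to 5 members above the level. The part of leukocytes in the CD163 difference was not tested. CAT, the peroxide-splitting catalase, fell by 1.63 in distal against proximal tissue of antibiotics piglets (limma adjusted p = 0.0478, kept in 1 of 8 fits that leave out an array, and 0.0804 with the piglet as a fixed block). It was the 1 call of 11 between segments (median -0.30), against 5.25% of all tested probe sets.

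APOM carries S1P, and 4 of 22 genes of S1P synthesis, transport and response were measured: S1PR1, a receptor, ASAH1 and CERS2, enzymes of ceramide turnover, and PLPP1, a lipid phosphatase. In limma 0 of 4 passed in either comparison, and 0 did at an unadjusted p under 0.05. At that unadjusted p stood 1966 of the 11538 tested probe sets between segments and 1823 between treatments in distal tissue. Of all tested probe sets 5.25% passed between segments and 2.12% between treatments in distal tissue, so 0 of 4 is near the background. The medians were 0.21 between segments and -0.37 between treatments in distal tissue. CERS2 differed by 0.49 (limma adjusted p = 0.311) and PLPP1 by -0.37 (limma adjusted p = 0.668) between segments.

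APOM rides on HDL, and 17 of 27 genes of HDL and other lipoproteins were measured. Between segments in antibiotics piglets 6 were lower and 2 higher in distal tissue, with a median of -0.65, against 2.10% lower and 3.15% higher among all tested probe sets. Lower were APOA2 (-4.03, limma adjusted p = 0.0151), APOA4 (-3.01, 0.00304), a chylomicron and HDL apolipoprotein, and LCAT (-2.54, 0.00307), which esterifies cholesterol on HDL, and also DGAT2, an enzyme of triglyceride synthesis (-3.13, 0.0241), ABCA1, which loads lipid onto HDL (-2.32, 0.0356), and SAR1B, a GTPase of chylomicron export (-0.98, 0.0493). APOE, a ligand of lipoprotein receptors, was higher (5.08, SE 0.69, limma adjusted p = 0.000401), with 10.83, 10.14, 10.36 and 10.65 in antibiotics distal piglets 85, 86, 87 and 95, against 5.73, 6.07, 5.18 and 4.65 in antibiotics proximal piglets 86, 87, 95 and 98. APOC2, the cofactor of lipoprotein lipase, was also higher (4.48, limma adjusted p = 0.0229). HDL apolipoproteins thus did not run one way between segments. APOA4, LCAT and APOE passed in all 8 fits that leave out an array, and APOA2 in 7, its adjusted p being 0.051 without antibiotics distal piglet 85 and 0.0656 with the piglet as a fixed block. APOC2 passed in 3, DGAT2 in 2, ABCA1 in 1 and SAR1B in 1 of these 8 fits, which left 3 to 4 lower and 1 to 2 higher. With the piglet as a fixed block ABCA1 (limma adjusted p = 0.126) and SAR1B (0.18) were also lost. Between treatments in distal tissue 0 of 17 passed in limma, against 2.12% of all tested probe sets. There, 6 did at an unadjusted p under 0.05, 3 higher and 3 lower, against 1823 of all 11538 tested probe sets. The list median was 0.40.

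**Figure D4:**
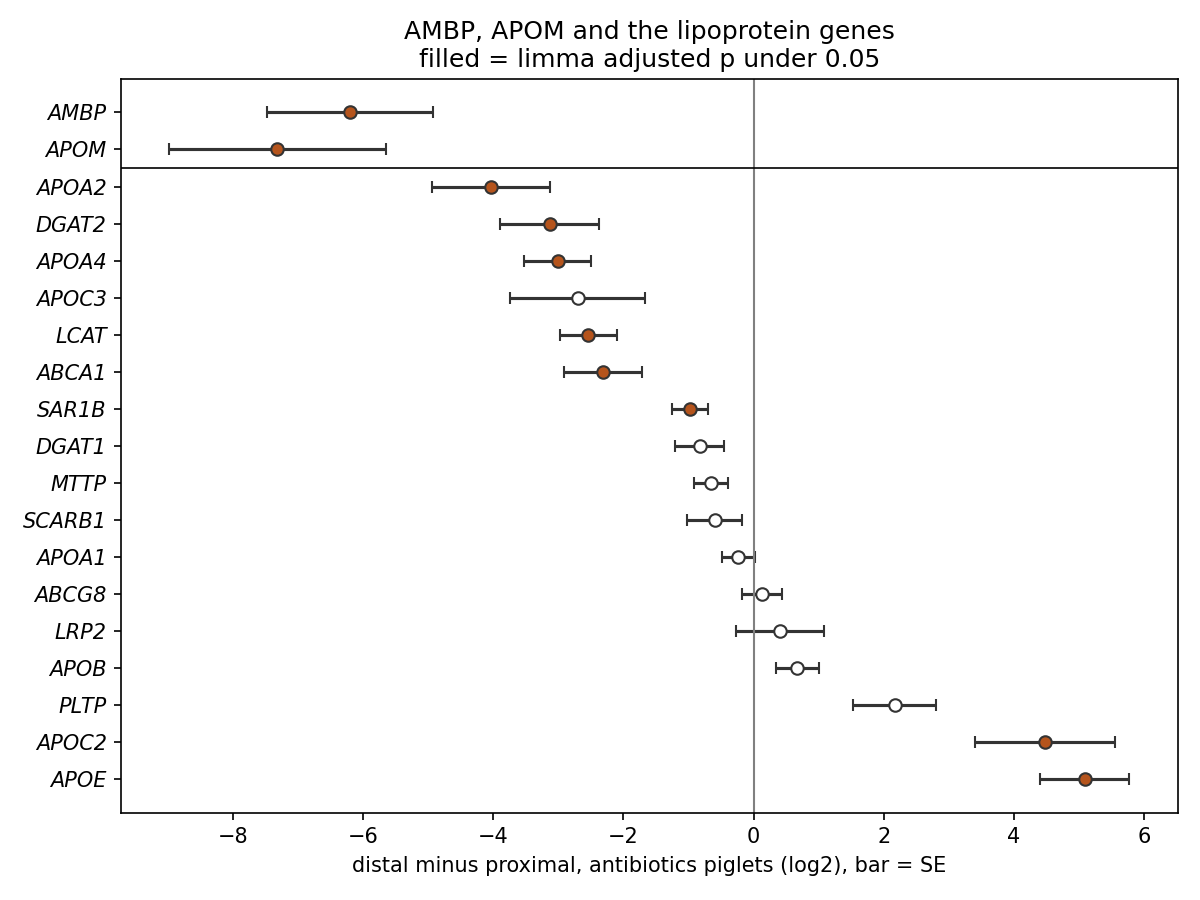
Distal minus proximal difference (log2 ± SE) in piglets given antibiotics, for AMBP, APOM and the measured genes of HDL and other lipoproteins (filled points have a limma adjusted p under 0.05). APOM (-7.31) and AMBP (-6.20) lie at the low end, with APOA2 at -4.03, and APOE (5.08) and APOC2 (4.48) lie at the high end.

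Retinoid handling, the work of several lipocalins and their cellular partners, had 6 of 28 listed genes measured. Between segments in antibiotics piglets BCO2, a carotenoid-cleaving enzyme (-1.54, limma adjusted p = 0.0414), RDH11, a retinol dehydrogenase (-1.03, 0.0214), and ALDH1A1, which makes retinoic acid (-1.30, 0.0337), were lower in distal tissue. These were 3 of 6, with a median of -0.88, against 2.10% of all tested probe sets called lower. Leaving out an array left 0 to 3 of the retinoid calls. With the piglet as a fixed block none of the 3 passed (limma adjusted p of 0.26 for BCO2, 0.0778 for RDH11 and 0.202 for ALDH1A1), nor did any with the 5′ minus 3′ measure as a covariate. Between treatments in distal tissue RDH11 fell by 1.33 with antibiotics (SE 0.24, limma adjusted p = 0.00812), and it passed in all 8 fits that leave out an array. It was the 1 call of 6 (median -0.41), against 2.12% of all tested probe sets.

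Regulators of hepatocyte type were measured for 12 of 25 listed genes. GATA4 was lower in distal tissue of antibiotics piglets (-3.06, SE 0.48, limma adjusted p = 0.00137, at least 1.33-fold), and with values under 5 set to 5 its limma adjusted p was 0.319. It was the 1 call of 12 (median -0.13), against 5.25% of all tested probe sets. HNF4A differed by -0.34 between segments (limma adjusted p = 0.690) and by -0.34 between treatments in distal tissue (limma adjusted p = 0.683). CEBPA, a factor of liver and fat cells, rose by 1.11 with antibiotics in distal tissue (limma adjusted p = 0.0484, kept in 1 of 8 fits that leave out an array). It was the 1 call of 12 between treatments (median -0.02), against 2.12% of all tested probe sets.

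Other plasma proteins of hepatocyte type were mostly below the level, with 2 of 24 listed genes measured, the complement proteins C3 and C5. In distal tissue both were lower with antibiotics, C3 by a difference of -2.41 (SE 0.43, limma adjusted p = 0.00664) and C5 by -4.20 (SE 0.67, limma adjusted p = 0.00344). Of all tested probe sets 1.10% were called lower there. Between segments in antibiotics piglets C3 differed by -0.93 (limma adjusted p = 0.279) and C5 by -0.016 (limma adjusted p = 0.995), so neither passed where AMBP and APOM did.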

How the data were processed

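Total RNA of piglet small intestine was labelled with a 3′ in vitro transcription kit and hybridised to porcine Affymetrix arrays, per the labels' protocols. The submitters' processing notes name GCOS 1.2 as well as GCRMA and limma, without their order. The authors deposited log2 values for every probe set on every array, with a floor at 2.14, and 39.7% of them lay under 2.5, where the size of a difference is poorly determined. The genome build is not given in the sources used here.

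Of 24123 probe sets, 124 are controls and were not used, 10069 carry 1 gene symbol, 198 carry more than 1 and 13732 carry no symbol. Probe sets above log2 5 on at least 4 arrays were tested (11538, for 4684 genes), and a gene is read from its probe set with the highest mean. Group means over all 16 arrays were fitted with limma 3.58.1 (lmFit, eBayes) in R 4.3.3, after a test on simulated data, with Benjamini-Hochberg adjustment over all tested probe sets and a threshold of 0.05. Blocks by animal used statmod 1.5.0, and figures were drawn with matplotlib 3.10.9. An "at least" fold sets the higher mean against the level of 5 where no array of the other group exceeded it.

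AMBP and APOM, the gene lists and the marker lists were chosen with earlier results of these data known. Genes named from a list were those past the threshold in either tested comparison, or, with fewer than 2 such, its measured genes of highest mean, up to 2, and those named for likeness were the 5 of highest Pearson's r. Single values given for other genes on untreated proximal arrays were chosen after the values were seen. Pairing by the number in the sample name was checked by correlating residuals of the 2 segments of the 7 numbers with both, which gave 0.0293 to 0.526, above 0.1 in 5. The alternatives tried were other filters, scalings, array weights, blocks by animal, the 5′ minus 3′ measure as a covariate, moderation settings and leaving out each array.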

Additional observations from a re-analysis of the deposited data

Results flagged for a closer look

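In antibiotics distal tissue AMBP had a log2 value of 2.51 in piglet 87, while the other 3 piglets all had 3.20, which sets that array apart from its group. All 4 values are below the level of 5, where values have no order, and APOM was also lowest in this piglet (4.496, against 5.93 to 6.47 in the others). 8 groups were looked at in this way, and about 5% of groups would be marked by chance. That rate assumes values without ties, and with 3 equal values any different remaining value is marked.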

How the results depend on the processing

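AMBP between segments in antibiotics piglets kept its direction and its call in all 12 alternatives (-6.96 to -4.22) and in all 8 fits without 1 array (-6.52 to -5.72, limma adjusted p 0.0154 to 0.0375). APOM kept its direction throughout but lost its call in 3 of 12 alternatives: with the 5′ minus 3′ covariate (-7.30, limma adjusted p = 0.0519), with the piglet as a fixed replicate block (-7.85, 0.0574) and with no filter on dim probe sets (-7.31, 0.0783, more probe sets tested). Without 1 array it lay between -7.66 and -6.87 and lost its call in 2 of 8. A random replicate block (correlation 0.172) changed no call. In distal tissue neither gene passed in any limma fit: without 1 array AMBP lay between 0.67 and 0.90 and APOM between -1.24 and -0.58. An exact permutation test on AMBP's difference of 0.73 gave an unadjusted p of 0.0286, but all its values lie below the level of 5 and no order is read from them. The alternative that sets values under 5 to 5 gave no value for it, and neither gene had another probe set to try. Probe sets called between segments numbered 606, from 353 (without antibiotics proximal piglet 95) to 3008 (array quality weights), and in distal tissue 245, from 106 (without untreated distal piglet 92) to 1665 (array quality weights). Groups of 4 arrays, and a floor that hides differences among dim values, limit what can be seen.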

Other observations

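Of the 16 tested probe sets that ranged at least as widely as AMBP among the untreated proximal arrays, 6 were annotated with 1 gene. VNN1, a pantetheinase of the gut epithelium, had log2 values of 11.57 to 12.32 in antibiotics distal, 10.61 to 11.38 in untreated distal and 9.07 to 10.72 in antibiotics proximal tissue, and of 2.16, 10.95, 8.68 and 2.74 in untreated proximal piglets 83, 88, 89 and 92. It divided those 4 piglets as AMBP and APOM did, but was above the level on all distal arrays. In the same 4 piglets CCL19, a chemokine of lymphoid tissue, had 2.21, 8.86, 3.74 and 10.65, EIF1AY had 12.60, 2.65, 12.03 and 2.22, and CR1, a complement receptor, had 2.14, 10.43, 2.25 and 2.18, so these 3 divided the piglets in other ways. These genes were picked for their range on these arrays, after the values were seen.

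By gene order in the RefSeq annotation of Sscrofa11.1, AMBP lies between ZNF618 and KIF12, and APOM between BAG6 and C7H6orf47. KIF12 has no probe set annotated here. ZNF618 had log2 values of 6.34 to 7.21 in antibiotics distal, 6.02 to 7.81 in untreated distal, 6.10 to 7.80 in antibiotics proximal and 5.47 to 8.20 in untreated proximal tissue. BAG6 and C7H6orf47 had 6.43 to 6.96 and 6.17 to 6.68 in untreated proximal tissue. Each of the 3 neighbours was read from its probe set with the highest mean, and none of these fell below the level of 5 on any array. ZNF618 has 2 probe sets and BAG6 has 3, of which 1 each passed the filter.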
